A study of Mus musculus with 3 samples.

Results

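The stretch of mouse chromosome 13 that holds the largest group of replication-dependent histone genes was examined in RNA from ovulated oocytes. It was taken as positions 21700001 to 23900000 of the mm9 build, and its members are the 2200 windows of 1 kb that tile it, out of 2725738 such windows in the files and 120285 on chromosome 13. The members were chosen by position alone. The study sequenced total RNA from the oocytes of 3 litters, with 1 library per litter and 1 group of samples, so the data give levels and their spread between litters and no contrast of conditions. All 3 litters came from females of mixed strain that were homozygous for the conditional LSD1 FL allele and negative for ZP3::Cre, the transgene whose Zp3 promoter drives Cre in growing oocytes. The females were superovulated, and the oocytes were collected by embryonic day 0.5, lysed in Prelude Direct Lysis Buffer, and their RNA was copied with the Nugen Ovation RNA-Seq kit by SPIA, an isothermal linear amplification, before Illumina library construction. How many females or oocytes made up a litter is not given in the sources used here. The spread between these samples may therefore be biological or technical.

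Replication-dependent histone genes encode the core histones H2A, H2B, H3 and H4 and the linker histone H1, which package newly copied DNA. In animals these genes are short and lack introns, and their mRNAs end in a conserved stem-loop in place of a poly(A) tail. The genes lie in clusters as many near-identical copies, so a short read from one copy can match several others. Mammalian oocytes store histone mRNA and the protein that binds its stem-loop, and use them in the first divisions after fertilisation.

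To show how alike the gene copies are, reading-frame sequence of 2 histone families was taken from GENCODE release M21 (build GRCm38), because the number and chromosomes of their copies are set beside those of the peaks below. Each stretch was built from words of 72 bases, the length of a read here. Capitals mark the stretch present letter for letter in every gene counted. In the H4 family, the stretch of 74 bases was found in 11 genes, all 11 on chromosome 13. In the H2A family, the stretch of 111 bases was found in 15 genes, of which 12 were on chromosome 13, 2 on chromosome 3 and 1 on chromosome 9. Genes were taken by symbols that begin with Hist. The chromosome 9 gene, H2afx, was the only one added by name, and other variant histone genes were not searched.
H4, from Hist1h4a (ENSMUSG00000060093.6): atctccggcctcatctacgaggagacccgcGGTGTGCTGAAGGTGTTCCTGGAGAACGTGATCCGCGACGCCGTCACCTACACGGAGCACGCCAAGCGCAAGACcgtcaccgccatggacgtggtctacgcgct
H2A, from Hist1h2ab (ENSMUSG00000061615.2): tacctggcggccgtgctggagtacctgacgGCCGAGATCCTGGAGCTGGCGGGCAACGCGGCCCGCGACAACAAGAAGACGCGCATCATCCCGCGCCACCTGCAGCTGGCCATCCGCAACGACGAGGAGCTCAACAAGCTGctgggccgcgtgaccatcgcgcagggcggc

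Across the families, that annotation places 6 H1, 13 H2A, 15 H2B, 9 H3 and 11 H4 protein-coding genes on chromosome 13. A transcript of a single exon was listed for 6, 13, 14, 9 and 11 of them, with a median length of 1236 bases for H1, 473 for H2A, 466 for H2B, 620 for H3 and 470 for H4. The share of 72-base words found in more than 1 gene of the family was 5.84% for H1, 46.2% for H2A, 39.0% for H2B, 47.2% for H3 and 32.5% for H4. The most genes that shared a word were 13 for H2B, all on chromosome 13, and 12 for H3, with 9 on chromosome 13 and 3 on chromosome 3. Of the 13 H2A genes on chromosome 13, 12 had an H2B gene as a direct neighbour. The annotation is built on another assembly than the files, so no peak below was assigned to a gene, and the oocyte identity of the samples was not checked against marker genes. The family counts are given beside the peaks only as a reference.

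The libraries held 35183199, 31787887 and 32028802 alignments in litters 1, 2 and 3. Per the file headers, they came from lanes 3, 4 and 8, so a difference between litters cannot be told apart from one between lanes. Levels are given as CPM, the alignments of a window or peak per 1000000 alignments of the library, computed from the deposited depth. Depth at a base was scaled in the same way and is called scaled depth.

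RNA from the region was concentrated in few windows. Windows with any alignment numbered 239, 207 and 225 in litters 1, 2 and 3, and 131 of the 2200 had alignments in all 3 litters. A level of at least 1 CPM was reached by 83, 82 and 70 windows, and by 64 windows (2.91%) in all 3 litters. Over the genome that share was 1.22%, and over chromosome 13 it was 1.24%. At 5 CPM the numbers fell to 21 windows (0.955%) in the region, against 0.453% of the genome. A window with no alignment may still hold up to 3 alignments by the limit that a count of 0 allows, or 0.0853, 0.0944 and 0.0937 CPM in litters 1, 2 and 3. Such limits and the intervals below cover counting error only, since amplified reads without molecular identifiers are not independent molecules.

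The region as a whole held 1892 CPM in litter 1, 1972 CPM in litter 2 and 635 CPM in litter 3 (1499.9 ± 750.2, SD, n = 3). Litters 1 and 2 were alike and litter 3 lay far below both, at 0.329 of their mean. As shares of all alignments these levels are 0.189% (95% Wilson interval 0.188 to 0.191%), 0.197% (0.196 to 0.199%) and 0.0635% (0.0626 to 0.0644%), from 66581, 62700 and 20336 alignments. The region makes up 0.0807% of the bases in the files, so its share of alignments exceeded its share of bases in 2 litters and fell short of it in litter 3. Counting each start position once per library brought the litters closer, to 1820, 1832 and 1385 CPM (1679 ± 255). Litter 3 was still the lowest on that count, by a smaller margin, but the count is capped by the number of start positions in a peak. In these bulk libraries, fewer cells of a type and less RNA per cell cannot be told apart.

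Signal lay mostly towards the ends of the region and little of it in the middle. The stretch from 21800001 to 22200000 held 817, 838 and 237 CPM, which was 41.0% ± 3.22 (SD, n = 3) of the region. The stretch from 23600001 to 23900000 held 1015, 1086 and 328 CPM, or 53.4% ± 1.70. Between them, positions 22200001 to 23600000 held 57.6, 48.1 and 69.8 CPM, and here litter 3 was the highest of the litters. The middle made up 3.04%, 2.44% and 11.0% of the region in litters 1, 2 and 3. In the outermost bin, 21700001 to 21800000, the level was 2.22, 0.975 and 0.312 CPM.

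**Figure D1:**
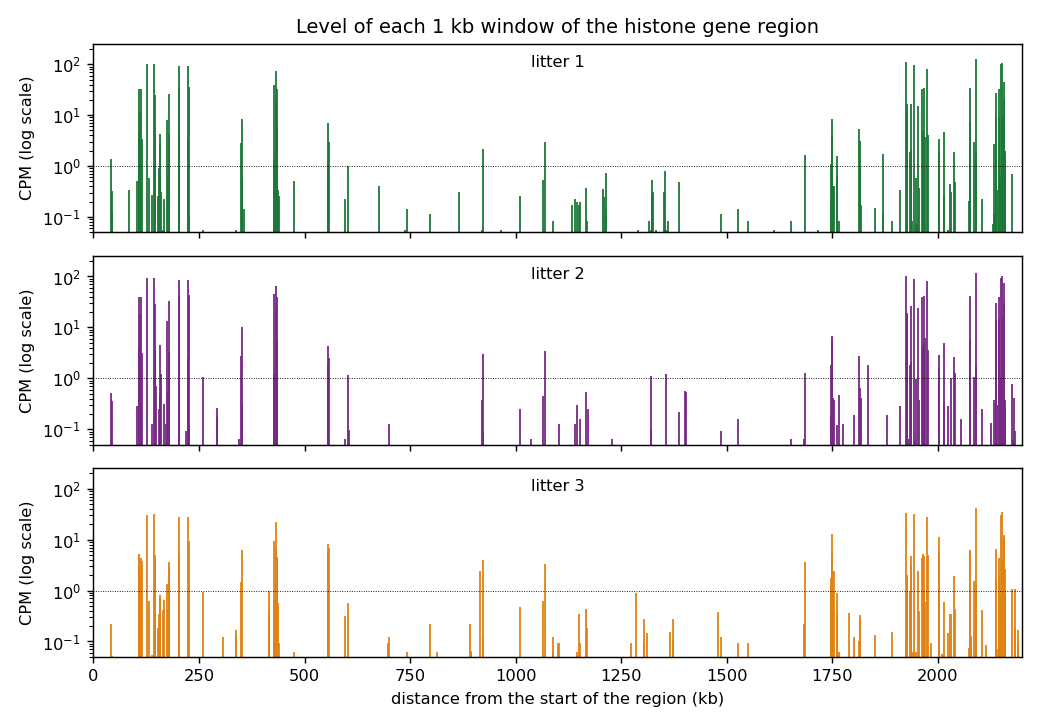
Level of each 1 kb window in CPM (log scale, dotted line at 1 CPM) against distance from the start of the region in kb, 1 panel per litter. Tall windows stand at the left and right ends in every litter and reach about the same height in litters 1 and 2, while the tall windows of litter 3 are lower and the short windows of the middle are not.

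The 10 windows with the highest mean were all of the same kind, each with litter 1 a little above litter 2 and litter 3 well below both. The highest was 23790001 to 23791000, with 129, 118 and 41.6 CPM in litters 1, 2 and 3 (96.2 ± 47.6, SD, n = 3), which ranked 1082 among all windows of the genome. The next were the windows that begin at 23852001 (81.4 ± 40.8), 23623001 (80.9 ± 41.3), 21842001 (76.5 ± 39.2), 23849001 (76.5 ± 39.5) and 21827001 (75.6 ± 38.9). The list ended with 23643001 (73.0 ± 35.7), 21903001 (67.9 ± 35.3), 21923001 (67.8 ± 35.2) and 23673001 (63.4 ± 31.1), the last of which ranked 1751. No litter 3 value of these windows overlapped the range of the other litters. With each start position counted once, litter 2 was the highest in all 10 windows. The separation of litter 3 was then lost in the window from 23852001 (40.5, 45.9 and 41.0 CPM). It was small in others, such as those from 23790001 (43.9, 48.7 and 42.9 CPM) and 21827001 (31.4, 35.7 and 30.7 CPM). It was widest in the windows from 21903001 and 21923001 (35.2, 38.8 and 30.9 CPM each). That count is capped by the number of start positions in a peak.

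The signal formed separate narrow peaks. A peak was taken as a run of bases with a mean scaled depth of at least 0.1, after closing gaps of up to 72 bases, that held at least 1 CPM on average. It was called narrow when it was 250 to 1000 bases wide. The region held 68 peaks, numbered p1 to p68 along the chromosome, of which 49 (72.1%) were narrow, 19 were under 250 bases and 0 were over 1000 bases. Over the genome, 17099 of 48430 peaks (35.3%) were narrow, 61.0% were under 250 bases and 3.68% were over 1000 bases. The peaks of the region held 97.8%, 98.1% and 93.8% of its alignments in litters 1, 2 and 3, and the narrow ones 75.9%, 73.5% and 84.2%.

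Narrow peaks of the region were 379 bases wide at the median, from 250 to 709, and the central 50% of them spanned 307 to 425. The median was close to that of narrow peaks over the genome, 389 bases, whose width range is fixed by the same rule. Without that rule, all 68 peaks had a median width of 350 bases, against 199.5 bases over all peaks of the genome. Depth was steep inside the peaks: at 50% of the peak height, the median narrow peak spanned 88 bases, little more than the 72 bases of 1 alignment, with a range of 72 to 572. The gap to the nearest other peak was 706 bases at the median and ran from 80 to 24315. The median level of narrow peaks was 6.93 CPM in the region, from 1.40 to 97.6, and 4.76 CPM over the genome. The alignments are gapless and the tracks hold no strand, so a narrow peak far from its neighbours is not by itself shown to be free of introns.

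**Figure D2:**
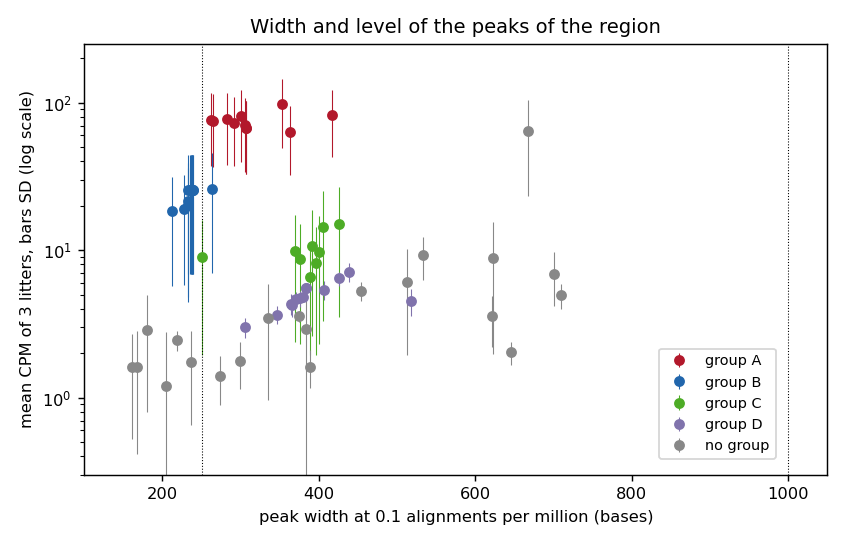
Mean level of each of the 68 peaks in CPM over 3 litters (log scale, bars show SD, cropped below the axis) against its width in bases, with dotted lines at the limits of 250 and 1000 bases, coloured by copy group. Group A forms a band of 262 to 417 bases at 63.4 CPM and above, group B a tight cluster at 212 to 263 bases, and groups C and D overlap in width at 250 to 518 bases while lying at different levels.

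Many peaks were copies of one another at the level of single start positions. A recurring run was taken as 3 adjoining start positions, together holding 50 alignments or more, whose spacing and per-litter counts were found again at another place, read forwards or backwards. Of 2344 runs in the region that could be tested, 1940 (82.8%) recurred, against 141015 of 665490 (21.2%) over the genome. Narrow peaks had 67.9%, 65.6% and 52.7% of their alignments at such positions in litters 1, 2 and 3 (62.1% ± 8.18, SD, n = 3). Over all alignments, inside peaks or not, the shares were 67.2%, 67.6% and 48.3% in the region and 27.1%, 27.1% and 23.5% in the genome. Positions that could be tested held 84.3%, 83.1% and 65.9% of the alignments of narrow peaks and 80.1%, 81.0% and 59.7% of those of the region. The lower recurring share of litter 3 thus does not show that fewer of its reads were shared. When every recurring position was divided by the number of places where it occurred, the region held 1042, 1069.6 and 462 CPM, so litter 3 was still the lowest by a wide margin. Peaks joined by recurring runs are not separate measurements, since the same reads appear to be reported at several places, and a sum over them counts those reads several times.

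Peaks linked by shared runs fell into 4 copy groups, called A to D in order of level. Group A had 11 peaks, group B 14, group C 9 and group D 13, and the remaining 21 peaks were in no group. Group D was too low for runs of 50 alignments and was found with a minimum of 20. All peaks of groups A, C and D were narrow, while only 1 of the 14 peaks of group B reached 250 bases.

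Group A held the highest peaks of the region that had copies. Its 11 peaks were 262 to 417 bases wide (median 306) and held mean levels of 63.4 to 97.6 CPM, with litter medians of 102, 94.1 and 31.5 CPM. The sums over the group were 1115, 1033 and 349 CPM (833 ± 420, SD, n = 3), or 55.4% of the region, a share that counts shared reads at each of their places. Litter 3 stood at 0.310 to 0.348 of the mean of litters 1 and 2 across the 11 peaks. Peaks were joined by identical counts per litter, to an extent that varied between pairs, so their like ratios are not fully separate observations. Dividing positions in recurring runs by their places gave 393, 368 and 132 CPM, with litter 3 at 0.347, so the ratio changed little with that division. With each start position counted once per library, p58 held 48.2, 54.8 and 46.5 CPM and p65 held 40.9, 44.6 and 44.2 CPM. That count has a ceiling in narrow peaks. Of the 177 start positions of p6, 155, 162 and 142 were occupied in litters 1, 2 and 3. It therefore cannot show whether the ratio depended on repeated starts. On that count litter 2 was the highest in all 10 group A peaks among the named ones, and litter 3 lay only slightly below litter 1 in most of them and above it in p65.

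Within group A, the highest peak was p58, at 23789966 to 23790318 (353 bases), with 131, 119 and 42.5 CPM. It was followed by p65 at 23852695 to 23853111, the widest of the group, with 108, 102 and 36.5 CPM. Next came p38 at 23623017 to 23623316, with 109, 100.4 and 33.4 CPM. These peaks lie in the stretch after 23600001, and in each the litter 3 value was below both others with no overlap. In the first stretch, p7 at 21842063 to 21842324 held 103, 95.2 and 31.5 CPM and p6 at 21827013 to 21827276 held 102, 94.1 and 30.8 CPM. Peak p64 at 23848920 to 23849202, far from them, held 104, 95.9 and 31.9 CPM. Its levels were close to those of p7, with which it shared 166 identical positions. These held 97.0% of the alignments of p7 and 95.9% of those of p64, so the likeness is no separate observation. The other group A peaks among the 10 highest were p43 (97.8, 89.0 and 32.1 CPM), p25 (95.4, 87.6 and 28.3 CPM) and the pair p16 and p17 (91.8, 84.4 and 27.4 CPM each).

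Likeness within group A was uneven. All 55 pairs of its peaks shared runs, 30 of them in opposite orientation. The share of alignments at identical positions, taken as the lower of both peaks, was 45.9% at the median, over 90% in 7 pairs and complete in 1 pair. Peak p50, at 23673450 to 23673812, had 10.1% of its alignments in recurring runs, while the group's median was 92.2%, yet its levels of 81.9, 80.8 and 27.4 CPM gave a similar ratio of 0.337 for litter 3. It was named after its values were seen. None of the 187 distinct runs of group A had a copy outside the region. The most places of a single run were 11, all in the region. The H4 stretch printed above is held by 11 genes of chromosome 13 and by no searched gene elsewhere. Whether group A comes from these genes was not tested.

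Group B was lower and shorter, and its loss in litter 3 was larger. Its 14 peaks were 212 to 263 bases wide (median 236.5), had mean levels of 18.5 to 26.1 CPM and litter medians of 33.0, 39.4 and 4.31 CPM. Here litter 2 was the highest, whereas litter 1 was the highest in group A. Litter 3 stood at 0.0738 to 0.149 of the mean of litters 1 and 2, a range that does not overlap that of group A. The sums were 432, 518 and 56.1 CPM (335 ± 246, SD, n = 3), or 19.3% of the region. With positions in recurring runs divided by their places they were 129, 129 and 29.0 CPM, with litter 3 at 0.224. The division reached only runs of 50 alignments or more. In p15 these held 78.8%, 84.1% and 54.3% of the alignments in litters 1, 2 and 3. The rest kept full weight at every copy, a larger part of litter 3 than of the others. Whether the ratio or the order of litters changes when all shared positions are divided was not tested.

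In group B, 45 of 91 pairs of peaks were identical over more than 90% of their alignments, 4 pairs completely, and 45 were in opposite orientation. Peaks p15, p18 and p26, at 21902487, 21924956 and 22134408, each held 33.0, 39.4 and 4.31 CPM from identical counts at all 155 start positions. Peaks p45 and p48, at 23662588 and 23666491, matched each other at all 156 positions. They were named after their values were seen. The one group B peak wide enough to be narrow by the rule, p55 at 23775373 to 23775635 (263 bases), held 33.7, 40.3 and 4.37 CPM. The threshold of 250 bases fell between p66, a group C peak of exactly 250 bases, and 13 group B peaks of 212 to 239 bases.

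Among groups A, B and C, for which this was looked up, only group B had copies outside the region. Of its 84 distinct runs, 53 recurred elsewhere, and the 12 runs with the most places occurred at 16, namely 13 in the region, 2 on chromosome 3 and 1 on chromosome 9. The H2A stretch printed above is held by 12 genes of chromosome 13, 2 of chromosome 3 and 1 of chromosome 9 in GRCm38. The last of these is H2afx, which was added to the gene list by name, so this likeness is no test of the genes behind group B. On chromosome 3, the window from 96024001 held 41.8, 62.7 and 2.80 CPM, the window from 96043001 held 44.9, 84.7 and 1.95 CPM, and the window from 96049001 held 52.7, 98.7 and 3.50 CPM. On chromosome 9, the window from 44143001 held 17.4, 22.1 and 3.87 CPM. Further copies lay on chromosome 11 in the window from 58768001 (19.3, 17.5 and 6.40 CPM) and on chromosome 13, outside the region, in the window from 51298001 (45.2, 87.2 and 3.12 CPM). Litter 3 was the lowest in each of these 6 windows. They were found by runs with the same counts per litter as group B, so this is no separate observation.

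Group C resembled group B in its litter pattern but not in shape or level. Its 9 peaks were 250 to 425 bases wide (median 391), yet their depth was held in a single summit, with a median span of 73 bases at 50% of the height. Mean levels were 6.57 to 15.1 CPM, and litter medians were 10.4, 16.6 and 2.05 CPM. Litter 2 was the highest and litter 3 stood at 0.138 to 0.185 of the mean of the others. The group held 98.4, 158 and 19.3 CPM in all (91.8 ± 69.5, SD, n = 3), or 5.41% of the region. Copies were less complete: 31 of 36 pairs shared runs, none was identical throughout, the median share of identical alignments was 21.4%, and no run of the 52 occurred at more than 5 places or outside the region.

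Group D did not share the loss in litter 3. Its 13 peaks were 306 to 518 bases wide (median 379), with flatter tops that spanned a median of 145 bases at 50% of the height. Mean levels were 3.00 to 7.12 CPM, with litter medians of 4.74, 4.17 and 5.21 CPM. Sums were 66.9, 59.5 and 65.5 CPM (64.0 ± 3.94, SD, n = 3), or 5.62% of the region. Litter 3 stood at 0.769 to 1.41 of the mean of the others, so the peaks lay on both sides of equality, and none of the 13 ratios overlapped those of groups A, B or C. Of 78 possible pairs, 67 shared runs, 1 was complete and the median share was 60.5%.

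**Figure D3:**
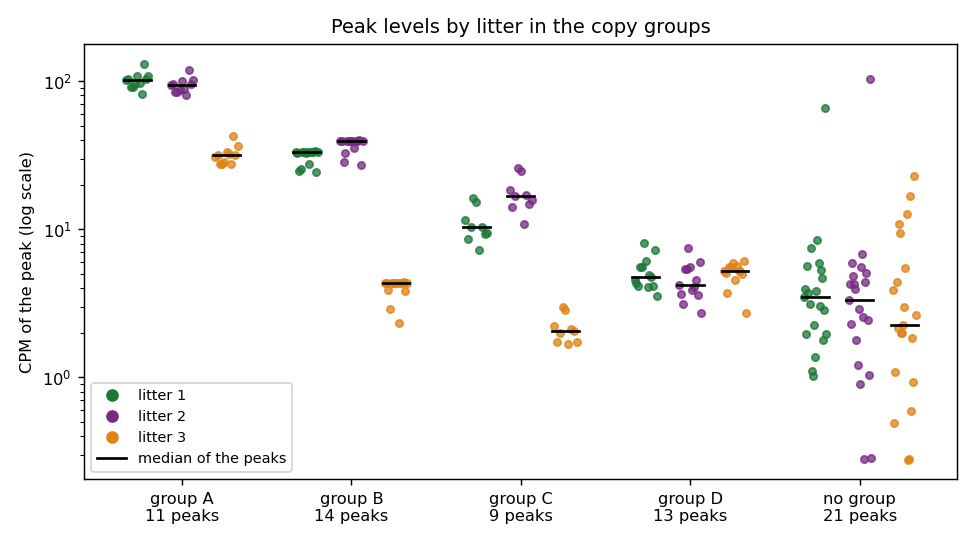
Level of every peak in CPM (log scale) by litter, for copy groups A to D and the peaks of no group. Points are peaks and black bars are the median of the peaks in that litter. Litter 3 lies below litters 1 and 2 in groups A, B and C without overlap, and among them in group D.

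Peaks of groups B and D stood side by side. For 11 of the 14 group B peaks, the nearest peak belonged to group D, at a gap of 424 to 483 bases (median 442), on the left in 3 cases and on the right in 8. Of the other 3, p4 had p5 at a gap of 434 bases, a peak in no group, and p39 and p62 had group C peaks at 1180 and 877 bases. Neighbours at gaps of 424 to 483 bases differed in their litter pattern. Litter 3 stood at 0.0997 to 0.149 of the mean of the others in the group B peak. In the partner it stood at 0.769 to 1.26, and was still the lowest litter in p24 and p27. In the group C partners of p39 and p62 litter 3 was low too, at 0.148 and 0.171. In GRCm38, 12 of 13 H2A genes of chromosome 13 have an H2B gene as a direct neighbour.

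The 6 kb of 6 windows that hold peaks p2, p3 and p4, near the left end of the region, showed these kinds of peak side by side. The stretch held 77.5, 97.4 and 10.9 CPM in litters 1, 2 and 3 (61.9 ± 45.3, SD, n = 3), and 5 peaks overlapped it, 3 of them narrow. Peak p1 (group D), at 21807635 to 21808005 (371 bases), held 4.54, 4.17 and 5.25 CPM and reached only 5 bases into the stretch. Peak p2 (group B), at 21808442 to 21808678 (237 bases), held 33.0, 39.4 and 4.31 CPM. Litter 3 was thus the highest in the first and the lowest by far in the second, 436 bases away. Peak p3 (group C), at 21809547 to 21809937 (391 bases), held 11.5, 18.3 and 2.21 CPM. Peak p4 (group B), at 21813305 to 21813537 (233 bases), held 32.7, 39.1 and 4.31 CPM, close to p2 in each litter. Peak p5, at 21813972 to 21814345 (374 bases), was in no group and held 3.49, 3.32 and 3.90 CPM, the same pattern as p1.

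By window, the level in this stretch was 33.0, 39.6 and 4.31 CPM around p2, 11.5, 18.3 and 2.22 CPM from 21809001, and 32.9, 39.5 and 4.40 CPM from 21813001. The 3 windows between held no alignment in any litter. Inside p2, depth had a pair of summits 97 bases apart that differed between litters. At the higher one, position 21808508, scaled depth was 18.4, 28.0 and 0.874 in litters 1, 2 and 3, and at the lower one, position 21808605, it was 13.5, 10.8 and 3.34. Litter 3 stood at 0.0377 of the mean of the others at the first summit and at 0.275 at the second, so the order of the summits was reversed there. Peak p4 showed the same summits in opposite order, at 21813468 with 18.4, 28.0 and 0.874 and at 21813374 with 13.5, 10.7 and 3.34.

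**Figure D4:**
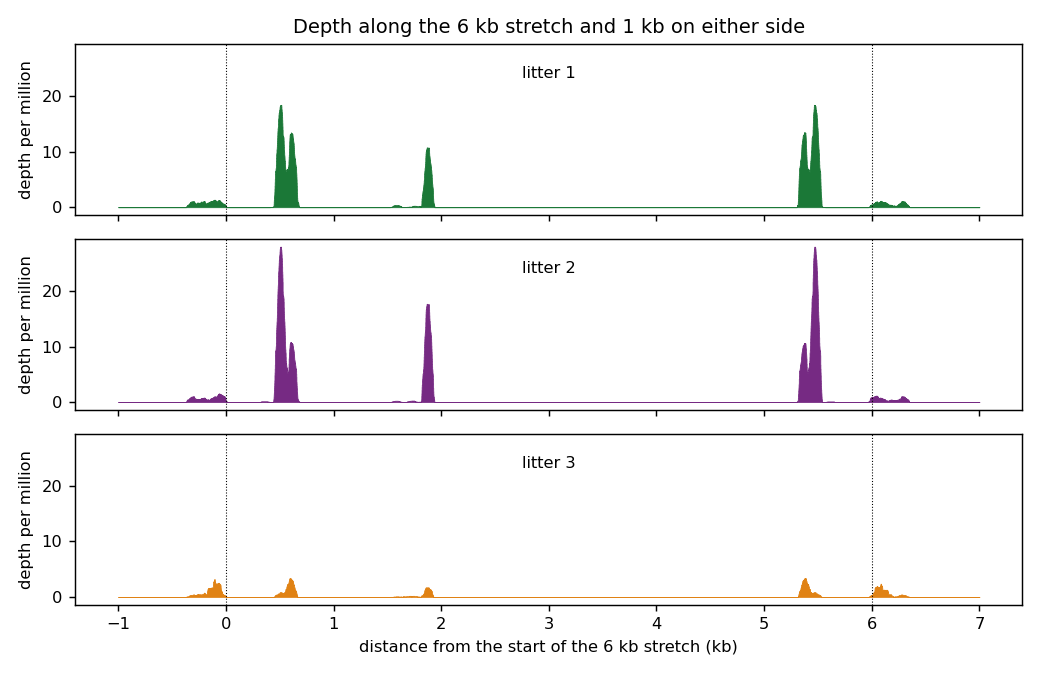
Scaled depth along the 6 kb stretch and 1 kb on either side, against distance from its start in kb, 1 panel per litter on a common scale. The tall peaks p2 and p4, each with a pair of summits, and the single summit of p3 are prominent in litters 1 and 2 and below 4 in litter 3, while the low peaks at both edges are not lower in litter 3.

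Another stretch read the same in both directions. Start positions at 21901654 to 21904007 and at 21923673 to 21926026 mirrored each other: all 1166 positions in both arms, 583 in each, had identical counts in all 3 litters in reverse order. Each arm held 4593, 4110 and 1194 alignments in litters 1, 2 and 3. The arms contain, in order from the outside, a group D, a group B and a group A peak, namely p14, p15 and p16 on the left and p19, p18 and p17 on the right. Between the arms, 7 positions with 7 alignments in all had no partner. The next alignment beyond the arms lay 34097.5 bases from the axis, on the left, and its mirror place on the right held none. The symmetry of counts had thus ended by that distance. Where it ended within the empty stretch before it cannot be read from these tracks. From such counts it cannot be told whether RNA came from one arm or from both.

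**Figure D5:**
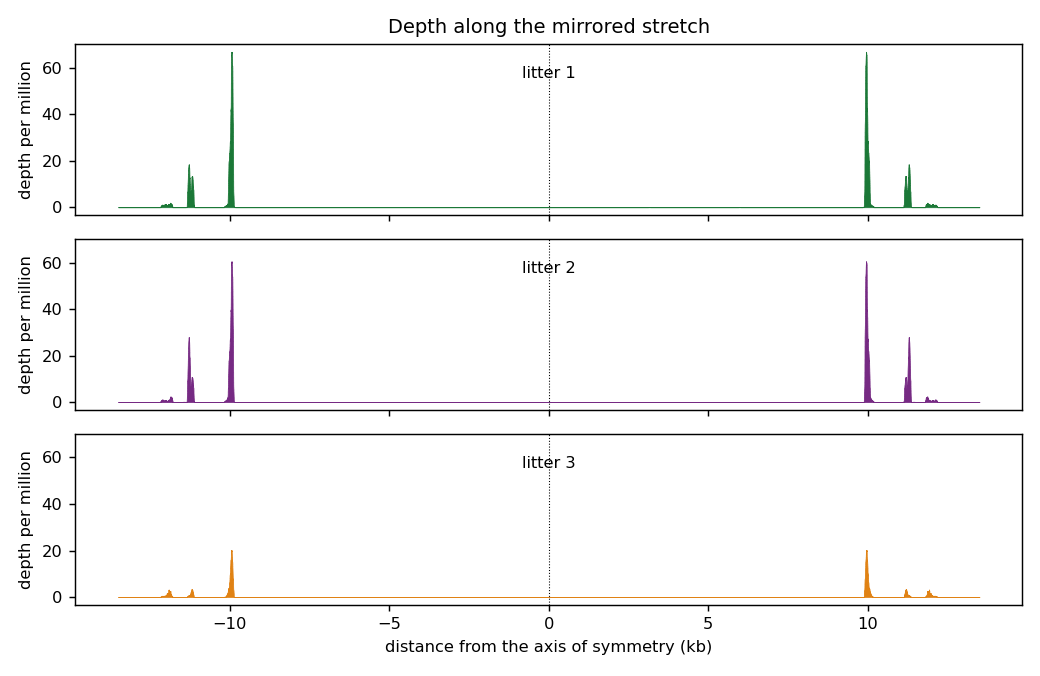
Scaled depth against distance in kb from the axis of symmetry, 1 panel per litter on a common scale. The peaks between 9868.5 and 12150.5 bases on the left return as their mirror image on the right in each litter, lower in litter 3.

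The spread between litters was tested in all windows of the genome with at least 10 CPM on average by alignment starts. By depth, the tested window from 23625001 had a mean of 9.11 CPM, and the untested window from 22133001 had 16.7 CPM. Counts of alignment starts were set against the library totals by a chi-square test, with Benjamini-Hochberg adjustment over 10913 windows, and a window was called where adjusted p was under 0.05 and the highest litter was over 4 times the lowest. This test knows counting error only. Over the genome 1903 windows (17.4%) were called, and 30 windows of the region were tested, of which 18 were called. All 18 were lowest in litter 3, a class that held 8.29% of windows over the genome, and 0 were highest in litter 3, against 8.78% over the genome. The adjusted p alone was passed by all 30 windows of the region and by 10637 of the genome's 10913. Without litter 3, no window of the region was called, and with each start position counted once 2 were. The latter count is capped by the number of start positions in a peak, which draws the litters together.

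Since every tested window of the region passed the adjusted p, the call here only restates whether the ratio was over 4. All 14 windows dominated by group B and all 3 by group C were called, with the highest litter 4.54 to 29.1 times the lowest, whereas none of the 11 windows of group A was, at 2.98 to 3.48 times. Since windows of a group share reads, the 18 calls are not 18 separate observations. Group D peaks were too low to be tested. The largest ratio was in the window from 23625001, with 652, 895 and 31 alignment starts (adjusted p = 1.12e-165, chi-square). By bases, this window holds only the left edge of p39, which spans 23625931 to 23626163. Alignments were counted by their starts, which the window boundary divides between this window and the next. Over the whole peak, by CPM, the highest litter was 15.2 times the lowest. It was followed by the window from 21878001, with 902, 1042 and 93 starts (11.3 times), and by the window from 23653001, with 538, 775 and 82 starts (9.52 times). Next, the windows from 22134001, 23662001 and 23666001 were tied at 9.19 times, with 1167, 1162 and 1165 starts in litter 1, 1259 in litter 2 and 138 in litter 3. The first of them was added after its values were seen. Over all tested windows, litter 3 divided by the mean level of litters 1 and 2 had a median of 0.201 in the region and 1.05 in the genome.

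Peaks outside the copy groups were mixed. They numbered 21, were 161 to 709 bases wide (median 384), and held mean levels of 1.20 to 64.0 CPM (median 2.91). Their ratio of litter 3 to the others ran from 0.0657 to 3.41, with a median of 0.875. The highest, p67 at 23855602 to 23856268, was 667 bases wide and held 65.4, 104 and 22.8 CPM, with 0% of its alignments in recurring runs although 74.6% of them could be tested. It was chosen after its values were seen. Its litter 3 value was the lowest and its litter 2 value the highest, so a low litter 3 also occurred in the region where no copy was found.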

How the data were processed

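Oocyte RNA of 3 litters was analysed, 1 library each. The deposited tracks give signal as coverage, the number of alignments over each base, which the authors did not scale to depth. The alignment to mm9 used Bowtie, per the submitters' processing notes. Its version, its filters and how many placements a read could have were not given in the sources used here. Each track holds 1 sorted lane, per the file headers. Blocks of depth 1 standing alone had lengths divisible by 72 in 100% of cases, so alignments were taken as 72 gapless bases and their starts recovered from the steps in depth, with 0 negative values. CPM is summed depth over 72, per 1000000 alignments of the file.

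The test and each definition stand with their results. With 3 litters the smallest exact two-sided sign-flip p is 0.25, so no such test was run. The computations were tested on simulated data. Windows were named if among the 10 highest, in the 6 windows from 21808001 to 21814000, or among the 5 with the largest ratio between litters. Narrow peaks were named if among the 10 highest, overlapping that stretch, or among the 10 with the largest recurring share. Other peaks were named after their values were seen. The region, the definition of recurring runs and the lists were chosen with earlier results of these data known. Alternatives covered thresholds, scaling, repeated starts and left-out litters. Sequences came from GENCODE M21, and its coordinates were not used. No annotation of mm9 was used here. Python 3.11.15, numpy 2.4.6, pandas 2.3.3 and scipy 1.17.1 were used.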

Additional observations from a re-analysis of the deposited data

How the results depend on the processing

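Windows at 1 CPM in all litters (64) became 21 at 5 CPM, and 64 to 74 without 1 litter. The share of alignments (0.150%) became 0.239% with the 100 highest windows of the genome left out of the total and 0.0719% without recurring positions. Dividing recurring positions by their places, a setting chosen after seeing the data, gave 0.0858%, and leaving out 1 litter gave 0.126 to 0.193%. Narrow peaks (49) became 32 at 5 CPM, 68 with the width limit lowered to 72 bases (chosen after seeing the data), and 49 to 50 without 1 litter. Their median width (379 bases) became 359.5 at a scaled depth of 0.2, 364 with no gap closed and 335 at 5% of each peak's height, and was 372.5 to 381 without 1 litter. Windows differing between litters (18) became 30 at a 2-fold ratio, 36 at a mean of 1 CPM by alignment starts, and 2 with each start counted once. They numbered 13 without litter 2, 18 without litter 1 and 0 without litter 3, a range of 0 to 18. The recurring share (62.1%) became 74.0% with a minimum of 10 alignments per run and was 54.4 to 65.9% without 1 litter. Of 35 named windows and peaks, 35 stayed within 1 SD under size factors and 22 with each start counted once, where 11 became lower and 2 higher. No paired analysis was possible because all 3 samples belong to 1 group. Start positions of low peaks hold too few alignments to be tested for recurrence.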

Other observations

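Some peaks of no copy group were highest in litter 3, against the direction of groups A, B and C. They were chosen after their values were seen. Peak p52, at 23702670 to 23703292, held 5.33, 4.42 and 16.6 CPM in litters 1, 2 and 3. Peak p28, at 22255805 to 22256316, held 3.15, 4.28 and 10.9 CPM, and its neighbour p29, which ends at 22257510, held 7.44, 3.96 and 9.39 CPM. Peak p35, at 23449054 to 23449586, held 8.40, 6.76 and 12.6 CPM. In all, 15 of the 68 peaks were highest in litter 3 and 45 were lowest there. All peaks of groups A, B and C were among the 45, and copies of group D among the 15. The counts are therefore not of separate observations, and the same shares over all peaks of the genome were not computed.

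Other peaks of no copy group were much lower in litter 3. Peak p36, at 23513735 to 23514118, held 5.90, 2.56 and 0.278 CPM, and p53, at 23713679 to 23714013, held 4.68, 5.09 and 0.593 CPM. Whether these peaks come from histone genes is not known from the tracks. Their start positions hold too few alignments to be tested for recurrence.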
